A study of Mus musculus with 3 samples.

Results

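The embryonic (primitive) and adult-type (definitive) globin genes and 2 other genes of the red cell lineage were followed in kidney rudiments of Fgfrl1-/- and wildtype mice. The members are Hba-x, Hbb-y and Hbb-bh1 as primitive globins, Hba-a1 and Hbb-b1 as definitive globins, Alas2 as an enzyme of heme synthesis and Epor as the receptor of erythropoietin. They were chosen by name: every probe of the array that is no control and carries 1 of these 7 gene names was taken, which gave 11 probes of 41174, and 7 gene names of 27745. Hbb-b1 has 4 probes, Hbb-bh1 has 2, and each of the other genes has 1.

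RNA came from C57BL/6 embryos at E12.5, either with a targeted deletion of Fgfrl1 in all tissues (Fgfrl1-/-) or from wildtype littermates. Fgfrl1 encodes a cell surface receptor of the Fgf receptor family that is needed for nephron formation, and the series asked which transcripts differ in the kidney without it. There were 3 RNA preparations of each genotype, each from a pool of 6 to 9 rudiments, and each of the 3 arrays carried 1 Fgfrl1-/- pool labelled with Cy3 and 1 wildtype pool labelled with Cy5. The dyes were swapped on 0 arrays, so genotype and dye cannot be told apart in any value given here. Arrays 2 and 3 shared a slide, while array 1 was on a slide of its own and its image was read with a different release of the software. The p-values measure how the ratio of the paired pools varies between the 3 arrays. Nothing in the labels ties a pool to a litter, so this cannot be read as variation between litters.

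Red cells of the mouse embryo come in 2 waves. Primitive red cells arise in the yolk sac, enter the circulation while they still have a nucleus, and make the embryonic chains zeta (Hba-x), epsilon y (Hbb-y) and beta h1 (Hbb-bh1) beside adult-type alpha chains. Definitive red cells arise later, chiefly in the fetal liver, and make the adult alpha and beta chains (Hba-a1 and Hbb-b1). A kidney rudiment of this age is not a site of blood formation, but the vessels within and around it hold circulating red cells. In RNA of a whole tissue, fewer red cells and less globin RNA per red cell cannot be told apart.

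Fgfrl1 itself had log2 ratios of Fgfrl1-/- over wildtype of -1.21, -1.51 and -1.83 on arrays 1, 2 and 3, with a mean of -1.52 ± 0.31 (SD, n = 3 arrays) and an adjusted p of 0.0332. Of 12 genes that mark the kidney rudiment, 11 were well above background in all 6 channels, and Ret was not. Lhx1 (mean log2 ratio -1.72), Wnt4 (-2.40) and Wnt11 (-0.76) of this list fell by the same test. Over both channels, 57.1% to 80.2% of the probes were well above background, 0 spots were saturated, and 107 to 138 spots an array carried an outlier flag, none of them a member's spot.

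The probes are 60 bases long, and the sequences of 8 of the 9 globin probes are given here, among them 2 pairs that overlap. Probe 4 of Hbb-b1 also enters every comparison and is given by its position. Positions are those that the scanner files give on mm8. Hba-x is probed at chr11:32177668-32177727 and Hba-a1 at chr11:32183775-32183956, both on the plus strand, and the second probe is drawn from more than 1 piece of a stretch of 182 bases. Hbb-y is probed at chr7:103726719-103726778, on the minus strand like the other beta-type genes. Probes 1 and 2 of Hbb-bh1 lie at chr7:103715634-103715693 and chr7:103715614-103715673. Probes 1, 2 and 3 of Hbb-b1 lie at chr7:103687624-103687683, chr7:103687338-103687397 and chr7:103687307-103687366, and probe 4 lies farthest downstream, at chr7:103686419-103686478. Alas2 is probed at chrX:145911166-145911225 on the plus strand and Epor at chr9:21709380-21709439 on the minus strand. A gene annotation of mm8 was not used here, so exons are not given. Each sequence runs 5′ to 3′, and capitals mark the bases that both probes of an overlapping pair share.
Hba-x: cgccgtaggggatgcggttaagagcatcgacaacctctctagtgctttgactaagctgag
Hba-a1: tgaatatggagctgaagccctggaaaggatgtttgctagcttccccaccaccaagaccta
Hbb-y: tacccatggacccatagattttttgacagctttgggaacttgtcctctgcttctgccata
Hbb-bh1 probe 1: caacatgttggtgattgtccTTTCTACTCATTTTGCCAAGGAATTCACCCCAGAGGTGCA
Hbb-bh1 probe 2: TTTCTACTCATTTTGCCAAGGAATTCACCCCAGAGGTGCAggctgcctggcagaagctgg
Hbb-b1 probe 1: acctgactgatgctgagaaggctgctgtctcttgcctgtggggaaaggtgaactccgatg
Hbb-b1 probe 2: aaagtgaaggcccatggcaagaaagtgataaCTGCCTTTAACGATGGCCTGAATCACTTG
Hbb-b1 probe 3: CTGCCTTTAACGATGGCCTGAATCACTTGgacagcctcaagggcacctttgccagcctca

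The probes of Hbb-bh1 share 40 bases and probes 2 and 3 of Hbb-b1 share 29, so each pair measures overlapping stretches of RNA and does not count as independent evidence. Between probes of different globin genes, the best alignment without gaps matched 30 of 59 bases (50.85%), between Hba-x and probe 3 of Hbb-b1. The adult genes, however, have close copies in the genome. The accession behind the Hbb-b1 probes carries the symbol Hbb-bt in RefSeq (GRCm38.p6), while the other 6 members keep their names. Whether the Hbb-b1 and Hba-a1 probes also bind the neighbouring adult copies was not tested.

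All 11 probes were well above background in each of the 6 channels. The globins were bright: the median spot intensity before normalization was between 6997 and 91233 for 8 of the 9 globin probes and between 1445.5 and 3075 for probe 1 of Hbb-b1, over a median of 60 to 113 for all spots of a channel. Alas2 gave intensities of 573 to 1047.5 and Epor of 201 to 592. Globin RNA was thus found in each of the 6 pools, whichever genotype. These intensities are those of different probes and do not rank the genes by amount of RNA.

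None of the 11 probes passed the test of Fgfrl1-/- against wildtype on 3 arrays (limma's moderated test, adjusted p below 0.05 over all 41174 probes), either as lower or as higher. Over all probes, 0.398% were called lower and 0.289% higher, so that 0 calls in 11 probes is what that background gives as well. Without adjustment, 3 members had a p below 0.05: Hba-x (0.029), probe 2 of Hbb-bh1 (0.0182) and probe 1 of Hbb-b1 (0.0062). Of all probes 6541 did. The plot of ratios by probe and array shows where the arrays differ.

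**Figure D1:**
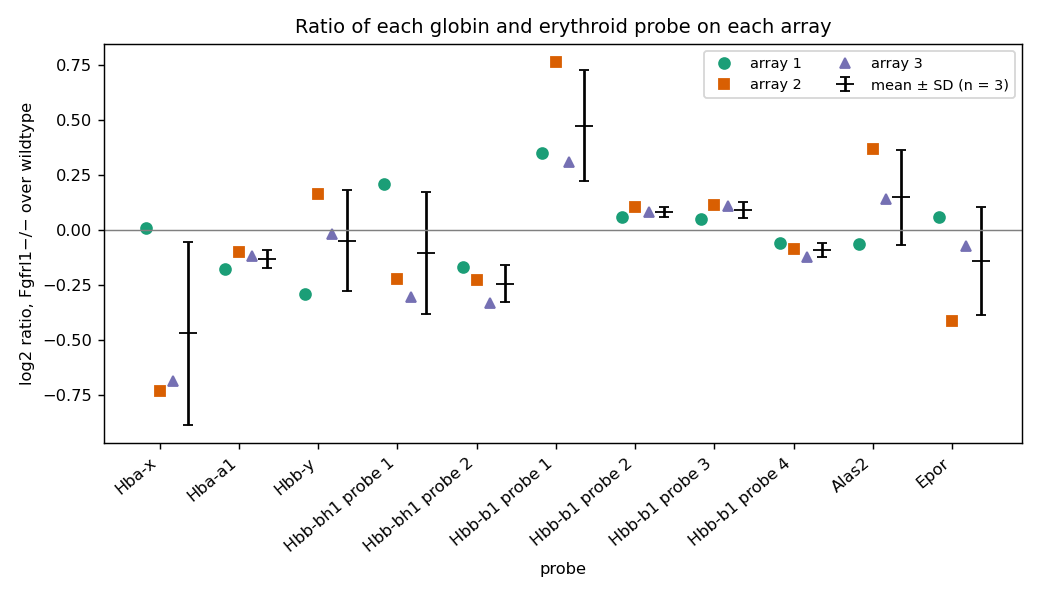
The y axis is the normalized log2 ratio of Fgfrl1-/- over wildtype, the x axis lists the 11 probes, symbols are the 3 arrays, and bars are the mean ± SD (n = 3). Hba-x and probe 1 of Hbb-bh1 lie below 0 on arrays 2 and 3 and above 0 on array 1, and probe 1 of Hbb-b1 lies above 0 on all 3.

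Hba-x, the zeta-type chain that pairs with embryonic beta chains, had the most negative mean ratio of the members. Its log2 channel level was 13.53, 14.11 and 13.94 in the wildtype pools of arrays 1, 2 and 3, and 13.54, 13.38 and 13.25 in the Fgfrl1-/- pools. The wildtype pools of arrays 2 and 3 were the high ones, and on array 1 both genotypes were level, so the groups overlapped. The log2 ratios were 0.011, -0.73 and -0.68, with a mean of -0.47 ± 0.42 (SD, n = 3 arrays), a 95% confidence interval for this probe alone of -0.87 to -0.069 and an adjusted p of 0.245. Within the slide that holds arrays 2 and 3, the mean was -0.71 (adjusted p = 5.42e-05 in the fit without array 1). With all 3 arrays and the slide as a block, it was -0.35 (adjusted p = 0.0015). That fit leaves the difference between the slides out of its spread. Whether Hba-x is called lower therefore depends on how the slide is treated. From array 1 to the mean of arrays 2 and 3, the wildtype level of Hba-x was higher by 0.50 (log2) and the Fgfrl1-/- level differed by -0.22.

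Hbb-bh1 encodes the beta h1 chain, an embryonic beta chain that is most abundant in the youngest primitive red cells. Probe 1 stood at log2 levels of 13.21, 14.01 and 14.02 in the wildtype pools and of 13.42, 13.79 and 13.72 in the Fgfrl1-/- pools. Probe 2 stood at 13.41, 13.95 and 14.00 in wildtype and at 13.24, 13.72 and 13.67 in Fgfrl1-/- pools. Both pools of array 1 were the low ones for either probe, and the genotypes overlapped. The log2 ratios of probe 1 were 0.21, -0.22 and -0.30 (mean -0.10 ± 0.28, adjusted p = 0.755), and those of probe 2 were -0.17, -0.23 and -0.33 (mean -0.24 ± 0.083, adjusted p = 0.198). The probes, which share most of their bases, thus matched on arrays 2 and 3 and differed in sign on array 1. Over the 6 channels, which pair up on 3 arrays, their levels had a Pearson r of 0.92.

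Hbb-y, which encodes the epsilon y chain, had log2 levels of 15.82, 15.54 and 15.75 in the wildtype pools and of 15.53, 15.70 and 15.73 in the Fgfrl1-/- pools. No genotype was on the high side throughout. Its log2 ratios of -0.29, 0.16 and -0.017 averaged -0.048 ± 0.23, with an interval of -0.31 to 0.21 and an adjusted p of 0.89. Hbb-y, a primitive globin like Hba-x, had a ratio on arrays 2 and 3 that was higher than on array 1 by 0.36 (log2), whereas that of Hba-x differed by -0.72 in the same direction of subtraction. Over all probes this step between the slides ran from -0.65 at the 5th percentile to 0.44 at the 95th, with a median of -0.0018.

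**Figure D2:**
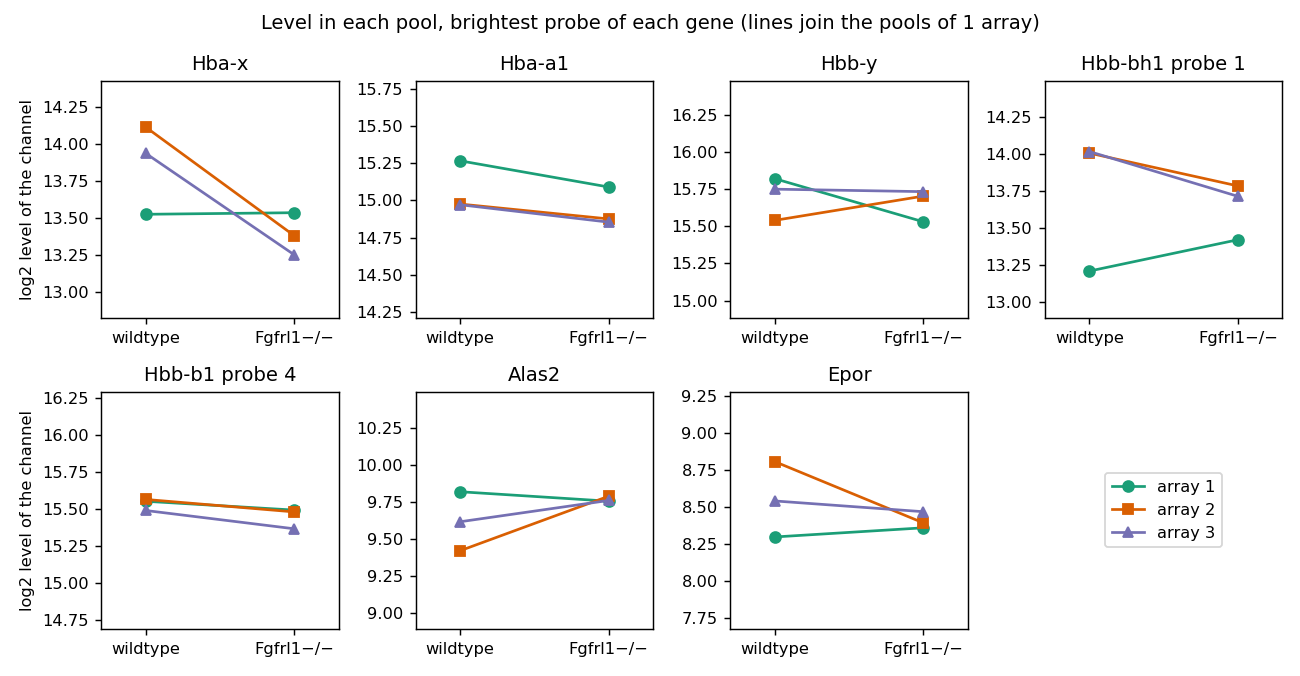
Each panel gives 1 gene by its brightest probe; the y axis is the log2 channel level after normalization, the x axis the genotype, and a line joins the wildtype and Fgfrl1-/- pools that shared an array. The lines of arrays 2 and 3 run down for Hba-x and Hbb-bh1 while that of array 1 does not, and the lines of Hba-a1 are nearly parallel.

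Hba-a1, the adult alpha chain that both waves of red cells make, gave nearly the same ratio on each array. Its log2 level was 15.27, 14.98 and 14.97 in the wildtype pools and 15.09, 14.88 and 14.85 in the Fgfrl1-/- pools. The Fgfrl1-/- pool was the lower one on each array, but the pool of array 1 lay above the wildtype pools of arrays 2 and 3. The ratios of -0.18, -0.10 and -0.12 had a mean of -0.13 ± 0.040 and an adjusted p of 0.441. The interval of -0.30 to 0.040 allows a ratio of Fgfrl1-/- over wildtype between 0.811 and 1.03.

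The 4 probes of Hbb-b1, the adult beta chain, did not give the same answer. Probe 1, the most upstream and the dimmest, had log2 levels of 10.94, 10.87 and 10.97 in the wildtype pools and of 11.29, 11.64 and 11.28 in the Fgfrl1-/- pools. All 3 Fgfrl1-/- pools lay above all 3 wildtype pools, which no other member probe showed in either direction: 1 of 11 probes did so with Fgfrl1-/- above, against 6.81% of all probes, and 0 of 11 with Fgfrl1-/- below, against 7.25%. The log2 ratios of probe 1 were 0.35, 0.76 and 0.31, with a mean of 0.47 ± 0.25, an interval of 0.20 to 0.75 and an adjusted p of 0.125.

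Probe 2 of Hbb-b1 stood at log2 levels of 13.51, 13.43 and 13.34 in wildtype and of 13.57, 13.54 and 13.42 in Fgfrl1-/- pools. Probe 3 stood at 14.76, 14.60 and 14.52 in wildtype and at 14.81, 14.72 and 14.63 in Fgfrl1-/- pools. Probe 4 stood at 15.55, 15.56 and 15.49 in wildtype and at 15.49, 15.48 and 15.37 in Fgfrl1-/- pools. On each array the Fgfrl1-/- pool was slightly the higher for probes 2 and 3 and slightly the lower for probe 4, with overlap between the genotypes throughout. The mean log2 ratios were 0.082 ± 0.023, 0.091 ± 0.037 and -0.089 ± 0.032, with adjusted p-values of 0.647, 0.607 and 0.618. The interval of probe 4, from -0.26 to 0.081, does not reach that of probe 1. As a description over the same 6 channels, the levels of the overlapping probes 2 and 3 had a Pearson r of 0.96, while probe 1 had an r of 0.54, 0.40 and -0.53 with probes 2, 3 and 4. A single statement on Hbb-b1 would hence depend on the probe chosen.

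To set the primitive against the definitive chains, the probes of a gene were averaged, and then the genes of a class. Hba-a1 counts as definitive here, although both waves of red cells make it. The primitive globins had mean log2 ratios of -0.086, -0.26 and -0.34 on arrays 1, 2 and 3 (mean -0.23 ± 0.13), and the definitive globins of -0.039, 0.062 and -0.011 (mean 0.0042 ± 0.052). The difference, primitive minus definitive, was -0.048, -0.33 and -0.33, with a mean of -0.23 ± 0.16 (SD, n = 3 arrays). It was below 0 on each array in this averaging, with the arrays of the second slide nearly equal. It is given without a test, since the genes were picked with results known. Its members do not move as one: in the mean over the arrays, Hba-x supplies most of it and Hbb-y next to none. On array 1, however, Hba-x (0.011) and Hbb-bh1 (0.021) lay above 0, and Hbb-y (-0.29) alone made the primitive mean negative. By the brightest probe of each gene alone, the difference was 0.095, -0.17 and -0.21 (mean -0.097 ± 0.17), so that its sign turned on array 1.

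Alas2 encodes the erythroid form of the first enzyme of heme synthesis. Its log2 level was 9.82, 9.42 and 9.61 in the wildtype pools and 9.75, 9.79 and 9.76 in the Fgfrl1-/- pools, so the wildtype pools were spread around 3 nearly equal Fgfrl1-/- pools. The ratios of -0.064, 0.37 and 0.14 averaged 0.15 ± 0.22, with an adjusted p of 0.563.

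Epor encodes the receptor through which erythropoietin keeps red cell precursors alive. Its log2 level was 8.30, 8.80 and 8.54 in the wildtype pools and 8.36, 8.39 and 8.47 in the Fgfrl1-/- pools, again with the spread on the wildtype side. The ratios of 0.062, -0.41 and -0.072 averaged -0.14 ± 0.24, with an adjusted p of 0.619.

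Which members passed depended on the slide. With arrays 2 and 3 alone, 3 of the 11 member probes were called lower, namely Hba-x (-0.71, adjusted p = 5.42e-05), probe 1 of Hbb-bh1 (-0.26, adjusted p = 0.0262) and probe 2 of Hbb-bh1 (-0.28, adjusted p = 0.0196), against 10.1% of all probes. In that fit 2 were called higher, probe 1 of Hbb-b1 (0.54, adjusted p = 0.00229) and Alas2 (0.26, adjusted p = 0.0408), against 8.49% of all probes. With the slide as a block, 2 were called lower, Hba-x (-0.35, adjusted p = 0.0015) and probe 2 of Hbb-bh1 (-0.22, adjusted p = 0.0221), against 11.3% of all probes. Probe 1 of Hbb-b1 was the 1 member called higher in the block fit (0.44, adjusted p = 0.00198), against 13.7% of all probes. Both fits take their spread from arrays 2 and 3 alone. The block fit weighs the slides equally, so array 1 counts as much as arrays 2 and 3 together. It assumes that the pools of array 1 vary likewise and leaves the difference between the slides out of the spread. Without array 2 or without array 3, 0 probes of any gene were called, with 3712 and 3141 at an unadjusted p below 0.05.

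Within-array scaling matters for probes as bright as the globins. Before normalization, the Fgfrl1-/- over wildtype ratio of Hba-x intensities was 1.01, 0.227 and 0.391 on the 3 arrays, and that of Hba-a1 was 0.828, 0.336 and 0.553. The loess curve, which removes any trend of the ratio with brightness, brought the 4315 probes at least as bright as the dimmest globin probe to a median log2 ratio of 0.0051, against 0.0037 for all probes. With median centring in place of loess, these bright probes had a median of -0.39 and all probes one of 0.042, and the globin probes then ranged from -0.92 (Hba-x) to 0.17 (probe 1 of Hbb-b1). Each globin ratio is therefore relative to other bright probes, and a shift common to them would not be seen. The difference between primitive and definitive globins was -0.23 under either scaling.

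**Figure D3:**
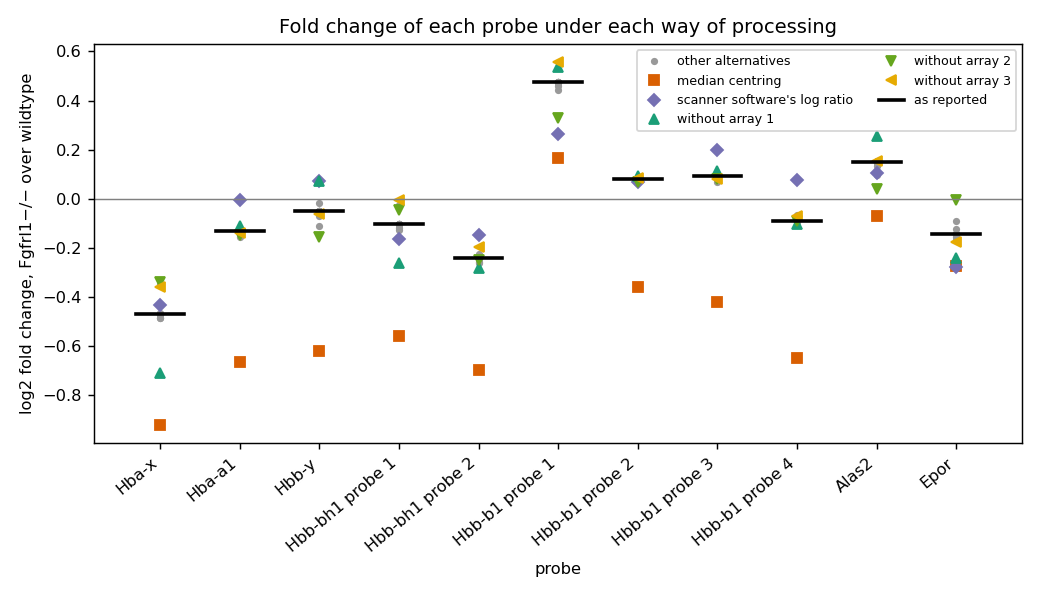
The y axis is the log2 fold change of Fgfrl1-/- over wildtype, the x axis lists the 11 probes, the black bar is the value reported here and each symbol is 1 other way of processing. Median centring lowers all probes, most of all the bright globins. Under each alternative plotted, Hba-x, Hba-a1, both probes of Hbb-bh1 and Epor stay below 0 and probe 1 of Hbb-b1 above 0. Of these, Hba-a1, probe 1 of Hbb-bh1 and Epor come as near to 0 as -0.0053, -0.0051 and -0.0054.

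The wider red cell program was read from lists of known genes, with each gene represented by its brightest probe. Of 10 globins with their chaperone, 8 were on the array by name, 0 passed the test, and 8 of 8 had a mean ratio below 0, with a median log2 ratio of -0.12 against 0.0037 over all probes. Hbb-b1 stands in this list by probe 4, its brightest; its probes 1, 2 and 3 lay above 0 and the mean of its 4 probes was 0.14, so the count for this gene depends on the probe. Besides the members the list includes Hba-a2, the second adult alpha gene (-0.014 ± 0.022, adjusted p = 0.957), and Hbq1, a theta-type gene (-0.13 ± 0.11, adjusted p = 0.502). Ahsp, a chaperone that binds free alpha chains, had log2 levels of 8.18, 8.58 and 8.42 in the wildtype pools and of 7.77, 8.18 and 8.10 in the Fgfrl1-/- pools. The Fgfrl1-/- pool was the lower one on each array. Its ratios of -0.41, -0.40 and -0.33 averaged -0.38 ± 0.044, with an unadjusted p of 0.00207 and an adjusted p of 0.0881, the smallest adjusted p among the genes of the erythroid lists.

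Genes of heme synthesis and iron supply were measured for 13 of 14, of which 0 passed, 7 lay below and 6 above 0, and the median was -0.037. Urod, which acts midway in heme synthesis, had ratios of 0.54, 0.34 and 0.25 (mean 0.38 ± 0.15, adjusted p = 0.12). Fech, which puts the iron into heme, had ratios of 0.24, 0.25 and 0.25 (mean 0.25 ± 0.0092, adjusted p = 0.167). Both had higher levels in the Fgfrl1-/- pool of each array, without a call.

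Genes of the red cell membrane were measured for 16 of 17, with 0 calls, 12 below 0 and a median of -0.089. Trim10, known for a role in late red cell differentiation, averaged -0.28 ± 0.17 (adjusted p = 0.221) and Slc4a1, the anion exchanger of the red cell, -0.27 ± 0.18 (adjusted p = 0.239). Erythroid transcription factors were measured for 11 of 11, with 0 calls, 9 below 0 and a median of -0.062. Sox6, a repressor of embryonic beta-type globin genes, averaged -0.31 ± 0.050 (adjusted p = 0.116), and Gfi1b, a repressor needed for red cell and platelet formation, averaged -0.26 ± 0.12 (adjusted p = 0.206). Sox6 is also made by tissues other than blood. Gata1, the master regulator of the lineage, was well above background in 5 of 6 channels (mean ratio -0.076, adjusted p = 0.676).

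In the path from erythropoietin to Stat5, 9 of 10 genes were measured, 0 passed, 4 lay above and 5 below 0, and the median was -0.0088. Cish, a feedback inhibitor induced by Stat5, had ratios of 0.44, 0.22 and 0.27 (mean 0.31 ± 0.12, adjusted p = 0.151). Bcl2l1, which protects red cell precursors from death, had ratios of -0.24, -0.25 and -0.19 (mean -0.22 ± 0.034, adjusted p = 0.202). The ligand gene Epo was not well above background in any of the 6 channels.

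Over the 4 erythroid lists together, 48 of 52 genes were measured and 0 were called. Of these, 36 had a mean ratio below 0 (Hbb-b1 by probe 4 among them) and 12 above, and the median was -0.074. Leaving out the members, 31 of 42 lay below 0 and the median was -0.067. The median of all probes was 0.0037. In this set, 8 genes below 0 and 2 above had an unadjusted p under 0.05, against 6541 of all 41174 probes in either direction. With the Epo genes added, the 50 listed genes that are no members held 5 calls lower and 4 higher on arrays 2 and 3 alone, against 10.1% and 8.49% of all probes. With the slide as a block, they held 9 lower and 4 higher, against 11.3% and 13.7%.

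**Figure D4:**
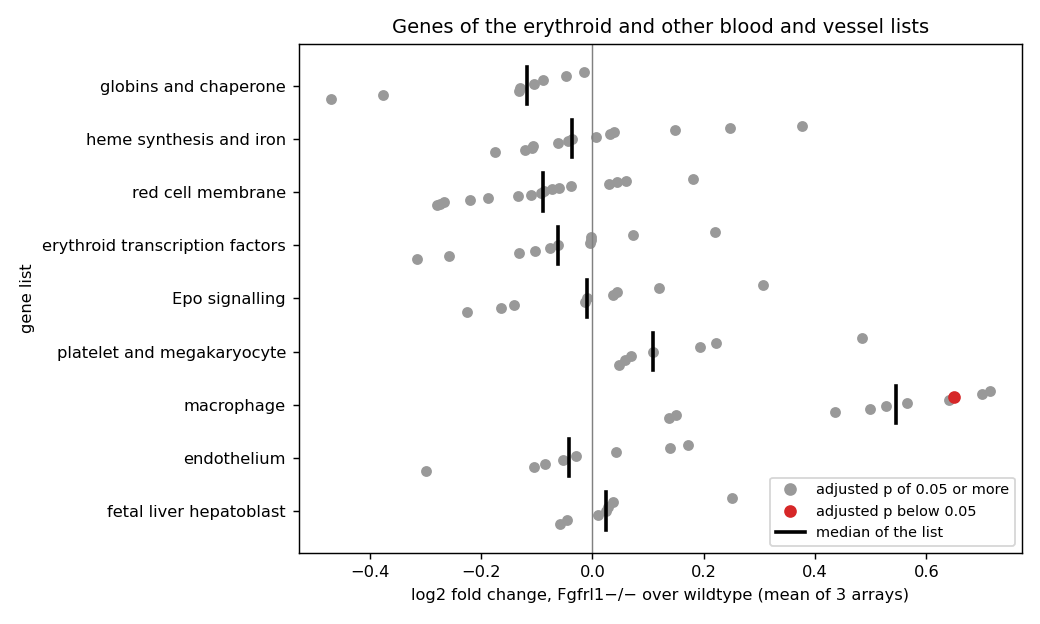
The x axis is the mean log2 fold change of Fgfrl1-/- over wildtype on 3 arrays, each point is 1 gene by its brightest probe, black bars are list medians, and red marks an adjusted p below 0.05. The erythroid lists centre slightly below 0, from -0.12 to -0.037, the macrophage list at 0.55, and C1qa is the 1 gene shown in red.

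Markers of other cells that blood and its vessels bring along were read beside these values. In the macrophage list, 10 of 10 genes were measured and 10 lay above 0, with a median of 0.55. Of these, 8 had an unadjusted p below 0.05, against 6541 of all 41174 probes in either direction. C1qa, a complement subunit made by macrophages, was the 1 gene called higher (0.65 ± 0.11, adjusted p = 0.0432), against 0.289% of all probes. The summed linear level of that list was 6332 to 11009 in the Fgfrl1-/- pools and 4537 to 5825 in the wildtype pools. In the platelet and megakaryocyte list 7 of 8 genes were measured, 0 passed, 7 lay above 0, and the median was 0.11. Ppbp, a platelet chemokine, averaged 0.48 ± 0.49 (adjusted p = 0.294) and Gp1bb, a platelet adhesion receptor subunit, 0.22 ± 0.37 (adjusted p = 0.551), with the high ratios of both on array 1. That list summed to 1351 to 2112 in Fgfrl1-/- and to 1036 to 1809 in wildtype pools.

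The endothelial list held 8 of 9 measured genes, 0 calls and a median of -0.042, and summed to 13628 to 18726 in Fgfrl1-/- and 15587 to 18693 in wildtype pools. Cldn5, a tight junction protein of vessels, averaged -0.30 ± 0.18 (adjusted p = 0.204) and Pecam1, an adhesion molecule of endothelium, 0.17 ± 0.13 (adjusted p = 0.398). Of 7 fetal liver genes, Afp alone was well above background in all 6 channels, with ratios of -0.037, -0.45 and 1.24, while Alb and Ttr among others were not. How far vessel content, blood left in the tissue or macrophage number takes part in the globin ratios was not tested.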

How the data were processed

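The members and gene lists were chosen with earlier results of these data known. The authors hybridized 3 Fgfrl1-/- pools (Cy3) with 3 wildtype pools (Cy5) on Agilent arrays and deposited, per array, the output of Feature Extraction (version 10 per the submitters' processing notes; per the file headers, array 1 was read with 9.5.3.1 and the others with 10.5.1.1). These deposited files hold median spot and background intensities, processed signal intensities, and the log10 ratio of red over green. A second deposited table gives 1 log2 ratio for each probe on each array; by comparison with the scanner ratios it runs as Fgfrl1-/- over wildtype (r = 0.70 to 0.72), and its background correction and normalization are not given in the sources used here. Probe names and sequences were read from the file of array 1 and matched to the other arrays by probe.

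Median intensities were corrected with limma 3.58.1 (R 4.3.3; normexp, offset 50) and normalized by loess, with control spots at weight 0. Outlier spots were dropped and the spots of a probe averaged. Each probe's log2 ratio was fitted with an intercept (lmFit, eBayes) and tested against 0, 2-sided, with Benjamini-Hochberg adjustment over 41174 probes. Each array pairs 1 pool of either genotype. Channel levels are log2 values after quantile normalization of the mean signal between arrays. The test was run on simulated data first. Intervals are at 95% and unadjusted, and the 3 arrays limit the precision.

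All members were named, with Fgfrl1; of each list, the genes that passed (at most 4), or else the 2 with the largest mean ratio in size among genes well above background in all channels; and the 5 genes most like Hbb-bh1, of which 1 is not reported here. Hba-a2, Hbq1, Gata1, Epo, Ret, Alb and Ttr were named after their values were seen. The 16 alternatives concerned background, source of the ratio, scaling, filters, probes of a gene, variance, channels fitted separately, slide and arrays left out. Figures were drawn with matplotlib 3.10.9.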

Additional observations from a re-analysis of the deposited data

How the results depend on the processing

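Of the 14 alternatives fitted by probe, 12 left the 11 member probes and the 50 listed genes that are no members (those tested, where dim probes were left out) without a call, as on 3 arrays. The other two, with 1 value a gene, called 0 of the 7 member genes and 0 listed genes. The exceptions were the slide as a block, with 2 member probes lower and 1 higher and 9 listed genes lower and 4 higher, and the omission of array 1. Leaving out 1 array at a time gave 0 to 3 member probes called lower, 0 to 2 called higher, 0 to 5 listed genes lower and 0 to 4 higher, with every call in the fit without array 1. With an offset of 0, the scanner ratio, or array 2 or array 3 left out, 0 probes of any gene were called. The lack of a member call in those fits thus tells nothing of the members in particular. Calls over all probes were also few without background subtraction (7 lower, 0 higher) and with trended, robust variances (6 lower, 0 higher). Primitive minus definitive globins ranged from -0.33 to -0.19 with 1 array left out. Some signs turned, all in probes without a call on 3 arrays: Hbb-y was 0.073 and probe 4 of Hbb-b1 0.076 in the scanner software's log ratio, Hbb-y ranged from -0.15 to 0.073 with 1 array left out and was above 0 without array 1, and median centring gave -0.36 and -0.42 for probes 2 and 3 of Hbb-b1 and -0.069 for Alas2. The cause was not tested.

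Over all probes, 164 were called lower and 119 higher. These counts became 7 and 0 without background subtraction, and 0 and 0 with an offset of 0 or the scanner ratio. They were 32 and 4 in the authors' table, 91 and 2 with median centring, and 46 and 14 of 26247 without dim probes. Averaging the probes of each gene gave 114 and 80, and trended, robust variances gave 6 and 0. Fitting the channels separately, with an intraspot correlation of 0.45, brought the counts to 235 and 220. They were 4649 and 5632 with the slide as a block, and 4172 and 3494 without array 1. The fit of separate channels changed no call of a member or listed gene. Its correlation still ties the 2 pools of an array, so the pairing was not dropped. The number of arrays, the lack of a dye swap and the confounding of slide with software version limit all values.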

Other observations

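The channel levels of Hbb-bh1 (its brightest probe, over 6 channels that share 3 arrays) were set against those of other genes as a description. Among 15433 genes well above background in all 6 channels, Bop1, a factor of ribosome assembly, came first (Pearson r = 0.998), before LOC674367 (0.997), 3526401B18Rik (0.996) and Mettl6 (0.995). An r above 0.9 was reached by 1164 of these genes (7.54%) and by 8 of the 40 erythroid and Epo list genes compared that are no members (20%), namely Stat5b (0.98), Slc25a37 (0.98), Zfpm1 (0.97), Ank1 (0.94), Cpox (0.94), Add2 (0.92), Rhd (0.91) and Nfe2 (0.91), which were named after their values were seen. The difference between these shares was not tested. Among the members, Epor had an r of 0.80 with Hbb-bh1, Hba-x of 0.55, Hbb-b1 of -0.096, Hbb-y of -0.24, Alas2 of -0.73 and Hba-a1 of -0.75. The primitive globins thus did not share 1 pattern over the 6 pools. Hbb-bh1, Bop1 and each of the 8 list genes named were lower in the pools of array 1 than in those of arrays 2 and 3. Slide and software version differ between these arrays, and their part in the r values was not tested.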
